A study of Mus musculus with 6 samples.

Results

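Immediate early genes were described in the apex of 6 mouse hearts, with 1 Affymetrix array per heart. The group was defined by gene symbol as Fos, Fosb, Jun, Junb, Egr1, Atf3, Ier2, Ier3, Myc and Klf4. All 10 genes were found, among 18193 genes that the platform annotation names by a single symbol, and they were measured by 12 of 45037 probe sets. Jun and Klf4 had a pair of probe sets each. A probe set is a group of short array probes for 1 or more transcripts, and its values are log2 signals. Of the 12 probe sets, 11 lay in the brighter 60% of the array by mean signal and were tested. The probe set of Fosb was dimmer and was described without a test in the main comparison.

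The hearts came from male mice aged 6 to 7 weeks with the genotype Fog2flox/delta, that is, 1 floxed and 1 deleted allele of Fog2 (official symbol Zfpm2, a cofactor of GATA transcription factors). In 3 mice an alpha MHC Cre transgene drove Cre recombinase in cardiomyocytes from the promoter of the α-myosin heavy chain gene. The other 3 mice had no Cre, but they too carried the deleted allele and were not wild type. Since Cre was never present on a background that lacks the floxed allele, loss of Fog2 and any action of Cre alone cannot be told apart. The comparison asks how transcripts of the adult heart differ when Fog2 can be deleted in cardiomyocytes. Differences are given as hearts with Cre minus hearts without Cre.

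Immediate early genes are transcribed within minutes of a stimulus, without new protein synthesis, and their short-lived mRNAs decay soon after. Growth factor, stretch and stress signals reach them through MAP kinases and transcription factors such as SRF with its ternary complex partners and CREB. Fos and Jun family proteins pair through leucine zippers to form the AP-1 transcription factor, Egr1 and Klf4 are zinc finger factors, Myc pairs with Max, and Atf3 is a stress-induced member of the ATF/CREB family. In the heart, a burst of Fos, Jun, Egr1 and Myc is a known early response to pressure load.

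The sequences below show a feature that several of these genes share and that did not enter their selection, the core of the cAMP response element, TGACG, at which CREB and ATF proteins bind. RefSeq promoter windows (GRCm38.p6) were on hand for 7 of the 10 genes, and the 250 bases upstream of the start site were searched on both strands. No window was on hand for Egr1, Ier2 or Myc. TGACG was present for 5 of the 7 genes (Fos, Fosb, Junb, Atf3 and Klf4) and in 17.8% of all 32851 windows. The windows were not matched to the 7 genes in base composition. The full palindrome TGACGTCA was in none of the 7 and in 1.55% of all. Jun held the related sequence TGACATCA, which 2.93% of windows contain. Stretches around these matches are printed 5′ to 3′ on the strand of the gene, with the match in capitals, and where the match lies on the opposite strand the capitals read CGTCA. Fos held a further TGACG at positions -129 to -125, and for Fos the match nearest to the start site is shown.
Fos, chr12:85473794-85473858, plus strand, match at positions -66 to -62 from the start site: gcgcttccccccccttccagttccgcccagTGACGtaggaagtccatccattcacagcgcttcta
Fosb, chr7:19310071-19310135, minus strand, match at positions -60 to -56: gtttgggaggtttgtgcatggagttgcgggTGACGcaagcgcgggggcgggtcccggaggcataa
Junb, chr8:84978820-84978884, minus strand, match at positions -106 to -102: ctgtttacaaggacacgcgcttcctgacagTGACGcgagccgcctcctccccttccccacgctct
Jun, chr4:95052230-95052297, minus strand, match at positions -45 to -38: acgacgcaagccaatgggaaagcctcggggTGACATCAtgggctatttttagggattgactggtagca
Atf3, chr1:191183334-191183370, minus strand, match at positions -7 to -3: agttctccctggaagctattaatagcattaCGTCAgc
Klf4, chr4:55532673-55532725, minus strand, match at positions -232 to -228: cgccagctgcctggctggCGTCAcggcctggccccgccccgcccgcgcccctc
In the same windows the AP-1 sequence TGANTCA and the CArG box of SRF had no match in any of the 7 genes, against 6.75% and 1.47% of all windows. Sites farther upstream than 250 bases were not searched, and Egr1 had no window. These counts therefore do not show that an early gene lacks such a site. The GC box GGGCGG was found for 6 of 7 genes, all but Junb, and in 32.7% of all windows. Ier3 had neither TGACG nor TGACATCA, but a match to the kappaB site of NF-κB, as did Fos and Fosb, against 7.25% of all windows. These are matches of letters only, and no binding was measured.

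Array medians ranged from 5.72 to 5.81, and arrays correlated at 0.980 to 0.987 within groups and at 0.964 to 0.973 between groups across tested probe sets. The summed level of the 8 cardiomyocyte markers was 16.50 to 16.56 over the 6 hearts, and 0 of the 8 passed the threshold. The targeted gene Zfpm2 was lower with Cre at 1 probe set (6.34 to 6.65 without Cre against 5.46 to 5.65 with Cre, adjusted p = 0.0052, or 0.068 when dim probe sets were kept in the fit). It was higher with Cre at its other probe set (8.83 to 8.95 against 10.48 to 10.71, adjusted p = 0.00014, or 0.014). The annotation does not place these probe sets within the gene, and neither can check the deletion. The 3′ minus 5′ signal of Actb, a measure that can reflect RNA quality, was 0.30 to 0.41 without Cre and 0.25 to 0.29 with Cre. That of Gapdh was -0.14 to -0.08 and -0.07 to -0.04. Each gave p = 0.1 in a two-sided exact permutation test, the smallest value 3 hearts against 3 allow, and adjusted p = 0.2 over 4 array measures. The part of RNA quality in the values below was not tested.

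None of the 11 tested probe sets passed the threshold of adjusted p under 0.05 (limma, Benjamini-Hochberg over 27022 probe sets), against 5.23% of all tested probe sets (3.43% higher and 1.79% lower with Cre). At an unadjusted p under 0.05 there were 4, namely Ier3, Egr1 and both probe sets of Jun, where 17.7% of all probe sets lay under that value. Differences were above 0 for 8 and below 0 for 3 of the 11, with a median of 0.10. Over all tested probe sets 53.5% were below 0 and the median was -0.02. The 8 hold both probe sets of Jun and both of Klf4. Hearts with and without Cre were fully separated for 3 of the 11, Ier3 on the lower side and Egr1 and the second Jun probe set on the higher side. That is 27.3% of the early gene probe sets, against a background of 23.5% of all tested probe sets (11.4% higher and 12.1% lower). As each sample is a piece of whole tissue, fewer cells of a type and less RNA per cell cannot be told apart in any of these values.

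**Figure D1:**
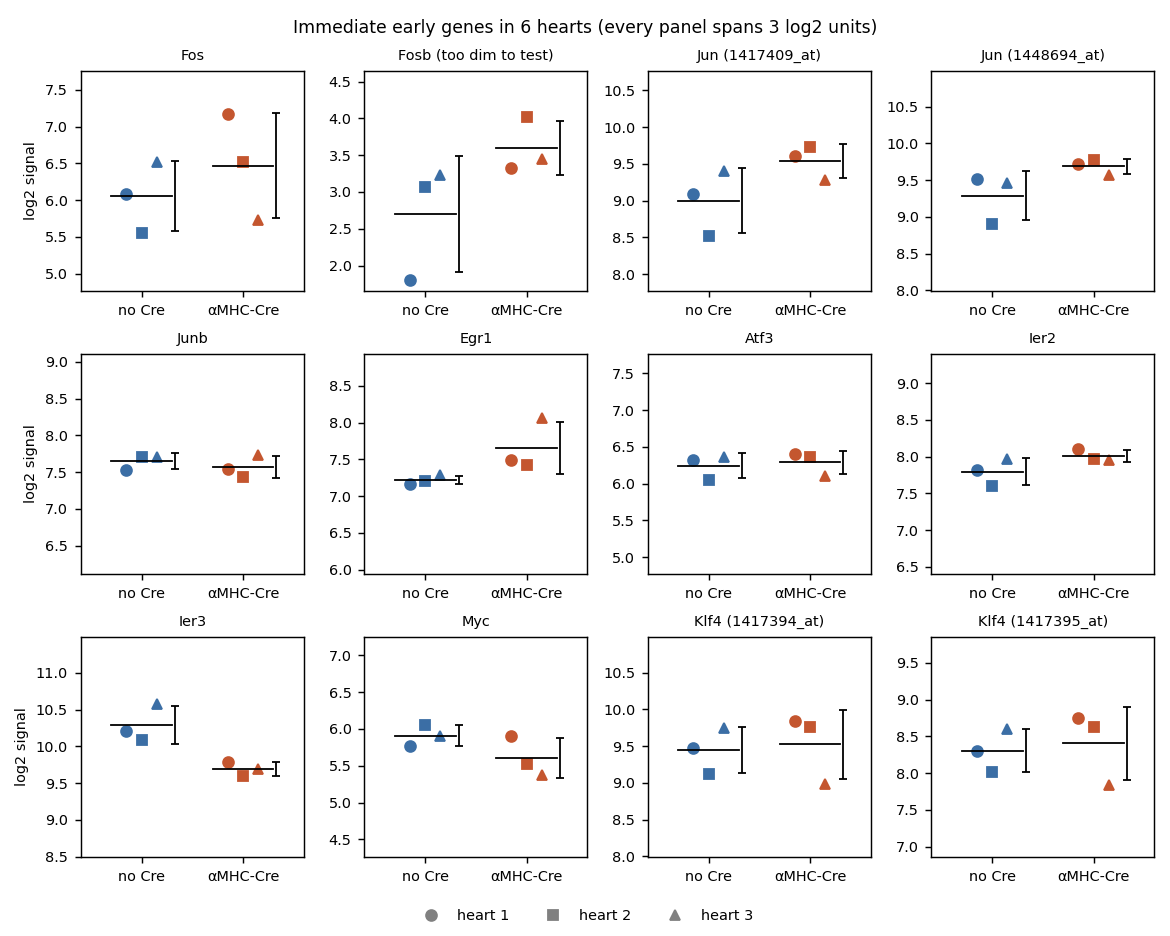
Log2 signal of each of the 12 probe sets of the early genes in every heart, with group means (lines) and SD (bars, n = 3). Heart numbers are given by the marker shape, and each panel has its own vertical range of equal span. Where a gene has a pair of probe sets, the first is the left panel. Ier3 is lower in every heart with Cre (9.59 to 9.78) than in any without (10.08 to 10.58), while Fos spans 5.73 to 7.16 among the hearts with Cre alone.

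Fos encodes the founding partner of Jun in AP-1. Its signal was 6.08, 5.56 and 6.51 in hearts 1 to 3 without Cre and 7.16, 6.51 and 5.73 in hearts 1 to 3 with Cre. The highest and the second lowest of the 6 values both came from hearts with Cre, and the groups overlapped. The difference was 0.42 ± 0.35 (SE; 95% interval -0.37 to 1.20, adjusted p = 0.61), so the interval runs from 0.775-fold to 2.30-fold. It was 0.069 without aMHC_Cre heart 1, 0.17 without no_Cre heart 2, 0.65 without no_Cre heart 3 and 0.79 without aMHC_Cre heart 3. With 64 added to the unlogged signal it was 0.24.

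Fosb encodes a second Fos protein, known for its stable truncated form. It read 1.80, 3.07 and 3.23 in no Cre hearts, against 3.33, 4.02 and 3.45 in αMHC-Cre hearts, at the low end of the scale. The groups did not overlap, but heart 1 without Cre lay far below the rest. The difference was 0.90, of which 0.45 was left without that heart, and 0.30 or 0.10 when 16 or 64 was added to the unlogged signals. In a fit that kept dim probe sets the 95% interval was -0.20 to 1.99 and the adjusted p was 0.49.

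Jun encodes the main dimerization partner of Fos. The first of its probe sets read 9.08, 8.52 and 9.40 in no Cre hearts, against 9.60, 9.72 and 9.28 in αMHC-Cre hearts. The second read 9.51, 8.90 and 9.46 in no Cre hearts, against 9.72, 9.77 and 9.57 in αMHC-Cre hearts. In both, heart 2 without Cre was the lowest of all hearts, and heart 3 was the lowest among those with Cre. The differences were 0.53 ± 0.22 (SE, adjusted p = 0.24) and 0.40 ± 0.17 (adjusted p = 0.26), with 95% intervals of 0.04 to 1.03 and 0.01 to 0.78. When dim probe sets were kept in the fit both intervals included 0 (-0.12 to 1.19 and -0.08 to 0.88). Without heart 2 of the no Cre group they were 0.29 and 0.21.

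Junb encodes a Jun relative that can temper the activity of Jun. Its level was 7.53, 7.71 and 7.71 in no Cre hearts, against 7.55, 7.43 and 7.73 in αMHC-Cre hearts. The hearts were intermingled and spanned only 0.30, the narrowest range among the early genes. The difference was -0.077 ± 0.13 (SE; 95% interval -0.36 to 0.21, adjusted p = 0.83). Leaving out single hearts moved it from -0.16 (without aMHC_Cre heart 3) to -0.0079 (without aMHC_Cre heart 2). It was -0.14 without no_Cre heart 1, -0.046 without no_Cre heart 2 and -0.047 without no_Cre heart 3.

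Atf3, which can pair with Jun proteins and often acts as a repressor, read 6.32, 6.05 and 6.36 in no Cre hearts, against 6.40, 6.37 and 6.11 in αMHC-Cre hearts. Each group had 1 heart below the others, heart 2 without Cre and heart 3 with Cre. The difference was 0.05 ± 0.14 (SE; 95% interval -0.26 to 0.36, adjusted p = 0.91), and its sign turned when heart 2 without Cre (-0.049) or heart 1 with Cre was left out.

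Egr1 encodes a zinc finger activator that growth signals induce through SRF. Without Cre its signal was 7.17, 7.21 and 7.29, and with Cre it was 7.49, 7.42 and 8.06. The groups did not overlap, with a tight cluster without Cre (SD 0.06, n = 3) and 1 high heart, number 3, with Cre (SD 0.35). The difference was 0.43 ± 0.17 (SE; 95% interval 0.04 to 0.82, adjusted p = 0.23). Without that heart it was 0.23 (adjusted p = 0.50). When dim probe sets were kept in the fit the interval over all hearts included 0 (-0.05 to 0.92).

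Klf4 encodes a zinc finger factor that endothelial and smooth muscle cells induce under flow and stress. Its first probe set read 9.48, 9.12 and 9.75 in no Cre hearts, against 9.84, 9.75 and 8.99 in αMHC-Cre hearts. The second probe set read 8.30, 8.01 and 8.60 in no Cre hearts, against 8.74, 8.63 and 7.84 in αMHC-Cre hearts. Heart 3 with Cre was the lowest and heart 1 with Cre the highest of all 6 in both. The differences were 0.08 ± 0.24 (SE, adjusted p = 0.92) and 0.10 ± 0.24 (adjusted p = 0.90). They were 0.35 and 0.38 without aMHC_Cre heart 3 and below 0 without no_Cre heart 2, aMHC_Cre heart 1 or aMHC_Cre heart 2, reaching -0.084 and -0.074.

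Myc, whose protein drives growth and ribosome synthesis, read 5.77, 6.06 and 5.90 in no Cre hearts, against 5.90, 5.53 and 5.37 in αMHC-Cre hearts. The hearts with Cre reached lower, but heart 1 with Cre lay inside the range of the hearts without Cre. The difference was -0.31 ± 0.16 (SE; 95% interval -0.67 to 0.05, adjusted p = 0.37). It was -0.19 without aMHC_Cre heart 3 and -0.14 with 64 added to the unlogged signal.

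Ier2 encodes a small nuclear protein of the early response. Its values were 7.82, 7.60 and 7.97 in no Cre hearts, against 8.10, 7.97 and 7.95 in αMHC-Cre hearts, and the groups overlapped narrowly. The difference was 0.21 ± 0.13 (SE; 95% interval -0.08 to 0.51, adjusted p = 0.46), and it was 0.12 without no_Cre heart 2.

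Ier3 encodes an early response protein linked to cell survival and MAP kinase signalling, and came closest to the threshold. It read 10.21, 10.08 and 10.58 in no Cre hearts, against 9.78, 9.59 and 9.69 in αMHC-Cre hearts. All hearts with Cre lay below all hearts without Cre. The group means were 10.29 ± 0.26 (SD, n = 3) and 9.69 ± 0.10. The difference was -0.60 ± 0.15 (SE; 95% interval -0.94 to -0.26), or 0.659-fold with an interval of 0.521 to 0.833, and the adjusted p was 0.054. It passed in 7 of 15 alternative analyses, with adjusted p from 0.010 with trend and robust variance settings to 0.22 when dim probe sets were kept in the fit. When 1 heart was left out the difference ran from -0.71 to -0.46, and it passed only without no_Cre heart 2 (adjusted p = 0.044).

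**Figure D2:**
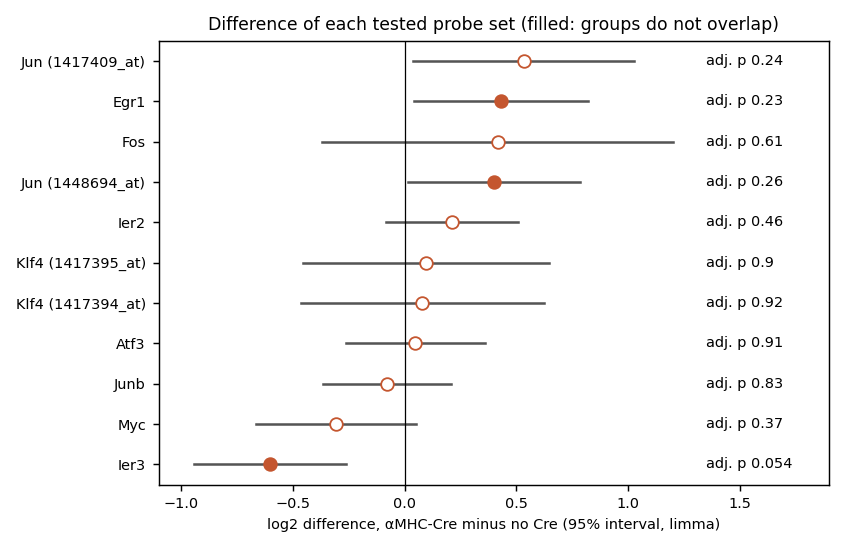
Difference between hearts with and without Cre for each of the 11 tested probe sets (log2), with 95% intervals and adjusted p from limma. Filled circles mark probe sets whose groups do not overlap. Most intervals span 0, and Ier3 lies farthest from 0 relative to its interval.

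The spread between hearts of the same group was wide for some early genes and narrow for others. The pooled within-group SD was 0.61 for Fos, larger than or equal to that of 99.2% of tested probe sets. For the Klf4 probe sets it was 0.40 and 0.41 (95.9% and 96.1% of probe sets at or below). It was 0.35 at the first probe set of Jun (93.4%) and 0.25 at the second (77.9%). Junb at 0.13 (29.7%), Ier2 at 0.14 (36.1%) and Atf3 at 0.16 (47.6%) lay below the median over all tested probe sets, 0.17. Ier3 at 0.20 (61.3%), Myc at 0.22 (69.6%) and Egr1 at 0.25 (78.9%) lay above it. Across the 11 probe sets the median was 0.25, and 8 of them were above the median of all. Of the 11, 4 exceeded the 90th percentile, 0.32, namely Fos, the first probe set of Jun and both of Klf4. Fos had the largest spread of the 11 and Junb the smallest.

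**Figure D3:**
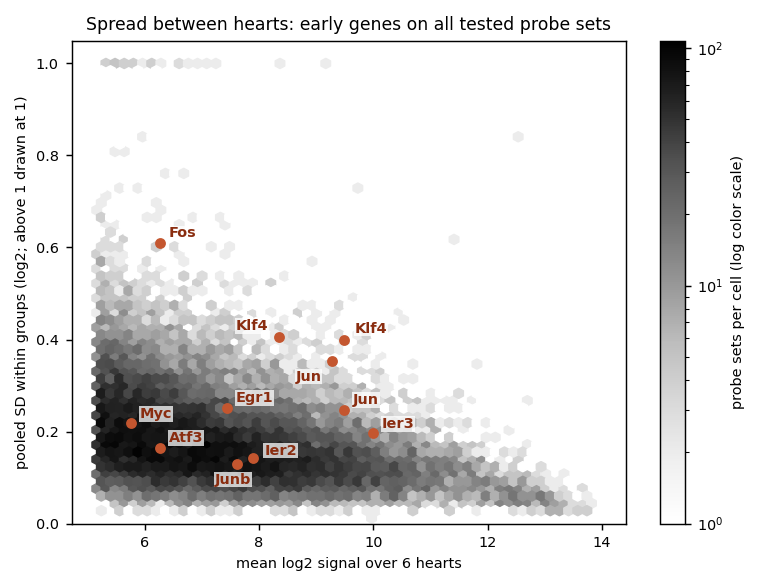
Pooled SD within groups (log2) against mean log2 signal for all 27022 tested probe sets (grey cells, darker for more probe sets) with the 11 tested probe sets of early genes in orange. Fos, Klf4 and 1 probe set of Jun lie above most probe sets, while Junb, Ier2 and Atf3 lie within the bulk.

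The hearts kept a similar order across several of these genes. Heart 2 was the lowest of the hearts without Cre for 8 of 11 probe sets, and heart 3 the lowest of those with Cre also for 8 of 11. Over all tested probe sets these hearts were lowest in 42.4% and 32.0%. Both held at once for 7 of the 11 (Fos, both of Jun, Atf3, Ier2 and both of Klf4), against 12.3% of all tested probe sets. In the pathway lists below, which take each gene once, both held for 0 to 43.5% of tested genes. The early gene count holds Jun and Klf4 by a pair of probe sets each, so its share is not in the same unit. The share was 43.5% for early response inhibitors of signalling, 42.9% for other early response transcription factors and 40% for bZIP partners. Egr1 and Junb ran the other way with Cre, with heart 3 highest. The pattern was noticed in these same values, the genes share their hearts and arrays, and no test was made of it.

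**Figure D4:**
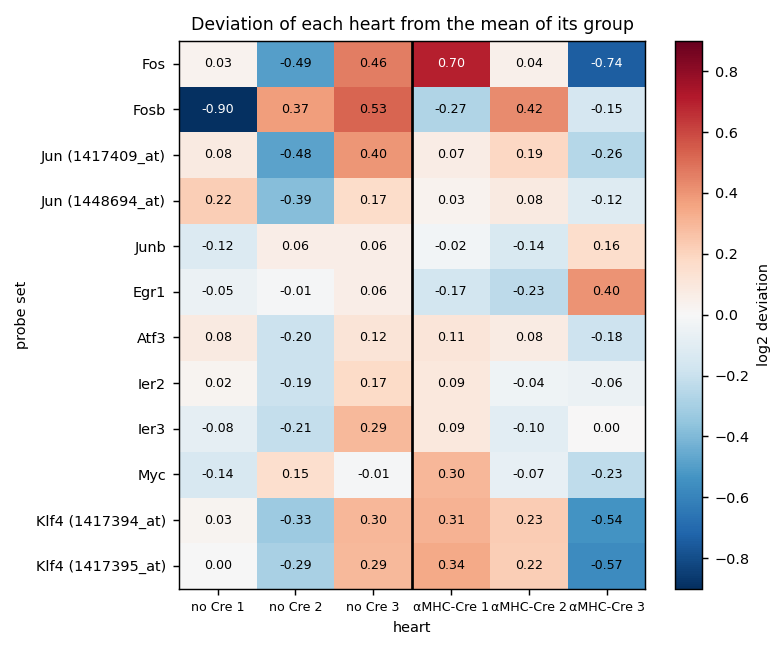
Deviation of each heart from the mean of its own group for the 12 probe sets (log2, blue below and red above). No Cre heart 2 and αMHC-Cre heart 3 are below their group means for Fos, Jun, Atf3, Ier2 and Klf4, whereas Egr1 and Junb are above it in αMHC-Cre heart 3.

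Fos and the first probe set of Jun had the widest ranges over the 6 hearts among tested early genes, 1.61 and 1.20. For each, the genes with the most similar profile were found by Euclidean distance between mean-centred log2 values over the 6 hearts. Nearest to Fos were Cebpd (distance 0.20), Errfi1 (0.27), Klf6 (0.32) and Trabd2b (0.38). Cebpd encodes a bZIP factor of the acute response, Errfi1 a feedback inhibitor of ErbB receptors, and Klf6 an early Kruppel-like factor. Cebpd read 9.24, 8.72 and 9.56 in no Cre hearts, against 10.23, 9.56 and 8.65 in αMHC-Cre hearts. Within each group its highest and lowest hearts were those of Fos. All of these genes were picked for their nearness, so a shared order of hearts is no separate result. Nearest to Jun were Hsd17b12 (0.27), Dusp6 (0.27), Rras2 (0.28) and Rlf (0.28), of which Dusp6 encodes a phosphatase that inactivates ERK kinases. Trabd2b, Hsd17b12, Rras2 and Rlf belong neither to the early gene group nor to the pathway lists below. Dusp6 read 7.23, 6.87 and 7.72 in no Cre hearts, against 8.01, 7.84 and 7.63 in αMHC-Cre hearts. The groups overlapped, and the difference was 0.55 ± 0.21 (SE, adjusted p = 0.20).

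Among 14 tested genes of a list of other early response transcription factors, 0 rose and 1 fell, with a median difference of 0.05. Counts here take each gene by its brightest probe set, and 6.24% of all 13062 genes tested were called (4.2% higher and 2.04% lower), with a median of -0.01. The gene that fell was Nfil3, a bZIP repressor, which went from 6.19, 5.88 and 5.94 to 5.35, 4.89 and 5.53. All hearts with Cre were lower, by -0.75 ± 0.18 (SE, adjusted p = 0.044). Its call held only without aMHC_Cre heart 3 when single hearts were left out (adjusted p 0.033 to 0.13), with differences of -0.88 to -0.56. It was also lost with quantile normalization (0.064) or with 64 added to the unlogged signal (0.062), and a 60% filter removed the gene. Nr4a1, an orphan nuclear receptor named after its values were seen, varied even more than Fos within groups, from 8.08 to 9.61 without Cre and from 7.76 to 9.39 with Cre.

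Early response inhibitors of signalling were the list with the widest spread between hearts. Of 23 tested genes, 11 exceeded the 90th percentile of the pooled SD, and 10 were lowest in both heart 2 without Cre and heart 3 with Cre. In the comparison of groups, Spry4 and Plk2 rose, Rgs2 fell, and the median difference was 0.11. Spry4, an inhibitor of receptor tyrosine kinase signalling, rose by 1.51 ± 0.30 (SE, adjusted p = 0.023), from 7.33, 5.95 and 6.90 to 8.40, 8.32 and 7.98. Its other tested probe set rose by 1.10 (adjusted p = 0.013). Rgs2, which shortens signalling by Gq-coupled receptors, read 10.45, 9.997 and 10.56 in no Cre hearts, against 9.56, 8.99 and 8.43 in αMHC-Cre hearts. It fell by 1.34 ± 0.27 on the log2 scale (SE, adjusted p = 0.022), and 3 of its 4 tested probe sets passed. Plk2, a stress-induced kinase, rose by 0.67 ± 0.16 (SE, adjusted p = 0.0496).

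With 1 heart fewer these genes kept their direction but not always their call. The difference of Spry4 ran from 1.12 to 1.81, and its call was lost without aMHC_Cre heart 1 (adjusted p = 0.083) or heart 2 (0.10) and with trend and robust variance settings (0.058). That of Rgs2 ran from -1.62 to -1.06, and its call was lost without no_Cre heart 1 (0.064), no_Cre heart 3 (0.069) or aMHC_Cre heart 2 (0.094) and with trend and robust settings (0.065). That of Plk2 ran from 0.53 to 0.79, and its call was kept only without no_Cre heart 2 (0.041 to 0.15 over the hearts left out) and was lost with quantile normalization (0.081).

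Among 11 tested early response genes of secreted and surface proteins, 2 rose and 0 fell, with a median difference of 0.22. Ccn2, the matricellular protein also called connective tissue growth factor, read 10.14, 10.32 and 10.20 in no Cre hearts, against 11.23, 11.50 and 10.90 in αMHC-Cre hearts. It rose by 0.99 ± 0.16 (SE, adjusted p = 0.0087) and kept its call in all 6 fits that omit a heart (adjusted p 0.0044 to 0.039). Edn1, the endothelin-1 precursor, rose by 0.70 ± 0.15 (SE, adjusted p = 0.033), a call that was kept only without no_Cre heart 2 or aMHC_Cre heart 1 when hearts were left out (0.036 to 0.11). Of the 11 genes, 0 were lowest in both heart 2 without Cre and heart 3 with Cre.

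The kinases and factors that act upstream had 1 call among 23 tested genes and a median of 0.09. Mapk14, the p38α kinase, read 9.87, 9.81 and 9.996 in no Cre hearts, against 9.26, 8.89 and 9.24 in αMHC-Cre hearts. It fell by 0.76 ± 0.14 (SE, adjusted p = 0.013), and this call was lost without aMHC_Cre heart 2 (0.058). A second probe set fell by 0.57 (adjusted p = 0.026), and another pair of tested probe sets differed by 0.02 and -0.15 without passing (0.97 and 0.60). Rps6ka3, an ERK-activated kinase of the RSK family named after its values were seen, differed by 0.52 ± 0.14 at its brightest probe set (SE, adjusted p = 0.074). Its other tested probe sets differed by 0.70 (adjusted p = 0.018) and 0.44 (0.11). With the mean over each gene's tested probe sets in place of the brightest, the call of this list was Rps6ka3, higher with Cre, and Mapk14 was not called. Rps6ka3 was called at its brightest probe set too with quantile normalization, a 60% filter, trend and robust settings, or 16 or 64 added to the unlogged signal, beside Mapk14.

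Of 15 bZIP partners and relatives, 12 genes of the Myc network and 10 other Kruppel-like factors, only Klf12 passed. Klf12, a transcriptional repressor, read 8.70, 8.51 and 8.71 in no Cre hearts, against 8.08, 7.87 and 7.96 in αMHC-Cre hearts. It fell by 0.67 ± 0.12 (SE, adjusted p = 0.014). Its other tested probe sets differed by -0.60 (adjusted p = 0.034) and -0.55 (0.056). The call was lost without no_Cre heart 1 (0.055) or aMHC_Cre heart 2 (0.076). Jdp2, a Jun dimerization partner, differed by 0.41 ± 0.20 (SE, adjusted p = 0.34), and Cebpg, a bZIP partner of C/EBP factors, by 0.28 ± 0.19 (0.52). The other tested probe sets of Cebpg differed in opposite directions, by -0.38 (adjusted p = 0.088) and 0.29 (0.35). Cebpb, named after its values were seen, read 9.95, 9.56 and 10.18 in no Cre hearts, against 10.35, 9.94 and 9.35 in αMHC-Cre hearts. As for Fos, heart 2 was lowest without Cre and heart 3 lowest with Cre, which held for 6 of the 15 bZIP genes. In the Myc network, Mlx differed by -0.32 ± 0.12 (adjusted p = 0.19) and Mxi1 by -0.30 ± 0.14 (0.31). The other tested probe set of Mlx differed by only -0.03 (adjusted p = 0.94), and that of Mxi1 by -0.44 (0.18). The medians of these 3 lists were 0.08, -0.04 and 0.01.

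Counting each gene once, 8 of 108 tested genes of these lists passed, 4 higher and 4 lower, which is 7.41% against 6.24% of all genes. The share is near the background. When dim probe sets were kept in the fit none of the 8 passed, and 0.611% of all probe sets did.

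**Figure D5:**
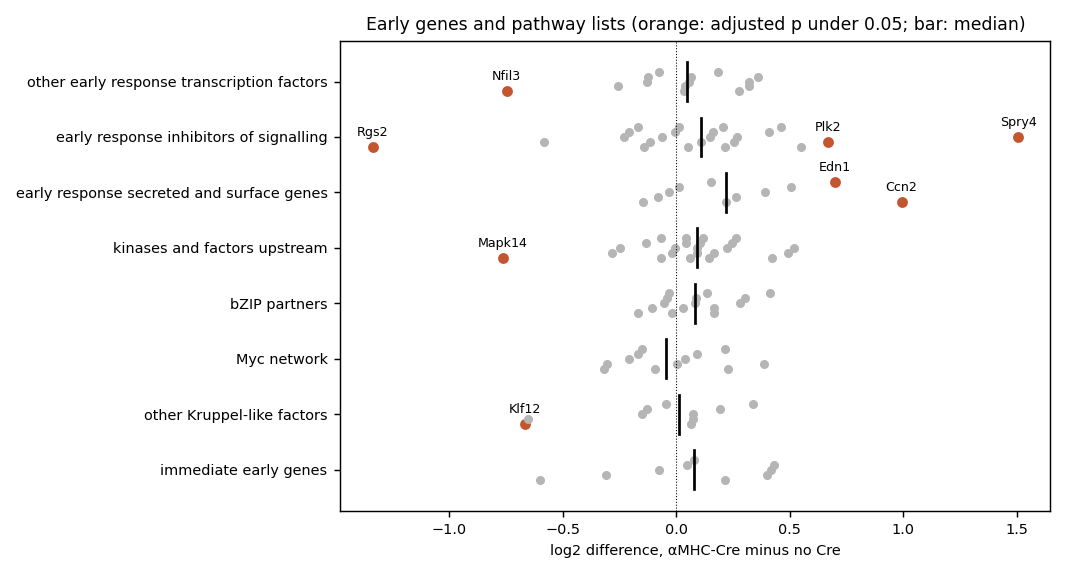
Log2 difference with Cre for every tested gene of the early gene group and of the 7 pathway lists, each gene by its brightest probe set, with medians as bars and genes of adjusted p under 0.05 in orange. Called genes lie on both sides of 0, and none belongs to the early gene group at the foot of the plot.

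Other cell types of the apex were followed by marker lists. Of 8 fibroblast markers, 4 rose and 0 fell, and their summed level (log2) was 14.10 to 14.26 without Cre and 14.55 to 14.64 with Cre. Col1a1 rose by 1.41 ± 0.21 (SE, adjusted p = 0.0064) and Mfap5 by 1.016 ± 0.18 (0.012). No marker passed among 8 endothelial, 7 smooth muscle and pericyte, 7 macrophage, 3 neutrophil and 2 lymphocyte markers tested. Summed levels take every marker with a probe set, tested or not. Those of 8 endothelial markers overlapped, at 12.25 to 12.58 and 12.50 to 12.60. Those of 8 macrophage markers also overlapped, at 11.24 to 11.56 and 11.39 to 11.49. The neutrophil marker Cxcr2 was at the floor of the scale, from -8.68 to 1.72 over the 6 hearts. None of 4 tested erythroid markers passed. The summed level of the 5 with a probe set was 9.31 to 9.85 without Cre and 10.45 to 11.53 with Cre. Tfrc, the transferrin receptor that many cells make, differed by 1.71 ± 0.44 (SE, adjusted p = 0.061). The part of these cell types in the early gene values was not tested.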

How the data were processed

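Each array came with log2 signals that the authors deposited by probe set, made with PLIER per the submitters' processing notes. PLIER's version, background step and normalization were not stated, and base 2 is inferred from the range of the values. The table has 6 columns of samples and 45101 probe sets. After removal of 64 control probe sets, the dimmest 40% by mean signal (18015) were dropped, which leaves 27022. Array medians lay within 0.1, so no normalization was added. Tests used limma 3.58.1 under R 4.3.3 (lmFit and eBayes, two-sided, no covariates) with Benjamini-Hochberg adjustment over all tested probe sets. On simulated data for this comparison (27022 probe sets) it recovered 93% of 2-fold and 100% of 4-fold changes, with 12 false among 205 calls. Recovery at a given spread was not tested. These shares therefore cannot be taken to hold for wide probe sets such as Fos (pooled SD 0.61, against a median of 0.17 over all tested).

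Probe sets with 1 annotated symbol were named (34945; 932 had several and 9160 none). The members and lists were chosen with earlier results of these data known. Of 210 listed genes, 209 matched a RefSeq gene table. All members are named, with up to 4 called genes, or up to 2 uncalled, per list, the 4 nearest genes of the 2 members with the widest range, and up to 2 genes per marker list. Nr4a1, Cebpb and Rps6ka3 were chosen after their values were seen. The labels call the hearts of a group biological replicates. A percentile of spread is the share of tested probe sets at or below it. Precision is limited by 3 arrays per group. Alternatives covered normalization, filter, variance model, array weights, replicate block, added signal, threshold and leaving out each heart.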

Additional observations from a re-analysis of the deposited data

How the results depend on the processing

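The count of early gene probe sets past the threshold was 0 and became 1, always Ier3, with quantile normalization, a 60% filter, trend and robust settings, array weights, 16 or 64 added to the unlogged signal, and a threshold of 0.1. Leaving out single hearts gave 0 to 1. Over all probe sets 1412 were called, 275 without a filter, 2220 at a threshold of 0.1 and 600 to 1075 with a heart left out. Of the pathway genes 8 were called, 0 without a filter and 1 to 9 with a heart left out (1 without aMHC_Cre heart 2). The median spread of the early genes, 0.25, was 0.23 with 16 added and 0.21 with quantile normalization. Of 12 probe sets, 9 kept the sign of their difference under every alternative run. The sign turned with single hearts left out for Atf3 (-0.049 to 0.14) and for Klf4 (-0.084 to 0.35 and -0.074 to 0.38).

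With the replicate block, 909 probe sets, 0 early gene probe sets and 4 pathway genes (Ccn2, Klf12, Mapk14 and Spry4) were called. The deviations of same-numbered hearts correlated at -0.06, 0.21 and -0.19 for numbers 1 to 3. With 3 hearts per group these values cannot decide whether the numbers pair the hearts, and the labels do not say. The cause of these changes was not tested. The precision of every value is limited by 3 arrays per group.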
